A study of Ovis aries with 18 samples.

Results

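The miRNAs miR-143, miR-145, miR-199 and miR-214 were followed in extracellular vesicles flushed from the uterus of sheep (Ovis aries) and in their endometrium. Their rows were found by number: every row whose own miRNA name, or whose listed miRNA of the same seed, names miR-143, miR-145, miR-199a, miR-199b or miR-214 (letters and arms after the number allowed). There were 4 such rows among the 495 for vesicles and 6 among the 761 for endometrium, which makes 6 different rows among the 768 listed for either. All ewes were ovariectomized and were injected with 50 mg of progesterone (P4) every day for 14 days. The group called P4 received nothing further, and the group called P4+RU486 also received 50 mg of RU486 (mifepristone, a progesterone receptor antagonist) on days 8 to 14. Vesicle libraries numbered 4 per treatment, labelled P01 to P04 for P4 and R01 to R04 for P4+RU486, and endometrium samples numbered 5 per treatment. Each ewe received a single treatment. The samples of a group carry different numbers in their titles and were treated as separate ewes, but the labels do not state this, and otherwise the p-values measure only the spread between these samples. The endometrium was dissected as whole tissue. The luminal flush was cleared, filtered, concentrated and fractionated by size exclusion, so its vesicles can come from any cell that releases them into the lumen. No ewe was left without progesterone, so the comparison is between progesterone with and without receptor blockade.

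A miRNA is cut from a hairpin precursor, whose 5p and 3p arms can each give a mature strand, and it represses messenger RNAs that pair with its seed near the 5′ end. miR-143 and miR-145 are processed from a shared primary transcript that is abundant in smooth muscle and in fibroblasts, where they favour the contractile, differentiated state. miR-199a and miR-214 are made together from a transcript antisense to the dynamin 3 gene in mesenchymal and connective tissue cells, and both are known from work on fibrosis and tissue remodelling. In the uterus, the myometrium and the stroma of the endometrium are such tissues, whereas the lumen is lined by epithelium.

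Only 2 of the rows carry a sheep miRNA name, miR-143 and miR-199a-3p. The row 5_29566 is listed with the seed of bovine miR-145 and the row 12_6942 with that of bovine miR-214. The endometrium table added 10_3637, with the bovine miR-145 seed, and 21_19737, with the seed of the mouse miR-145a-3p strand. Since unrelated miRNAs can have a seed in common, these rows keep their identifiers here. No row of either table named miR-199b, and the only miR-199 strand listed was the 3p arm, which is the same molecule in the miR-199a and miR-199b genes of well studied mammals, so that its reads need not come from a single gene. In the RefSeq gene table of the assembly ARS-UI_Ramb_v3.0, MIR143 lies within the long non-coding RNA gene LOC114114896, beside the protein-coding genes IL17B and PCYOX1L. MIR199A lies within DNM3, the dynamin 3 gene. That assembly differs from the build named by the submitters and was used for neighbours only.

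Vesicle levels are given as normalized CPM, reads scaled to an adjusted library size as deposited by the authors. Whole reads could be recovered from them, 97202 to 1062646 per library in listed rows. The smallest totals, all under 150000 reads, were those of P01, P04 and R04, and P03 was the deepest. A count of 0 allows up to 3 reads, which corresponds to 3.30 normalized CPM in P03 and to 31.3 in R04. Intervals and such limits cover counting error only, since no molecular identifiers mark which reads are copies of the same molecule. P01 stood apart from the other libraries on the first principal component (score 16.7, the others from -10.6 to 5.41). Epithelial rows, the miR-200 family and a row with the miR-205 seed, were present in every library, with a summed level of 8965 to 35369 normalized CPM. In bulk vesicle RNA, fewer vesicles from a cell type and less of a miRNA in each vesicle cannot be told apart.

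miR-143 was by far the most abundant of these miRNAs in vesicles, and its level did not differ between treatments beyond the spread of the libraries. The P4 libraries P01 to P04 held 13097, 11358, 16350 and 10790 normalized CPM. The P4+RU486 libraries R01 to R04 held 11714, 14919, 9673 and 12539 normalized CPM. The highest value was in a P4 library (P03) and the lowest in a P4+RU486 library (R03), and the treatments overlapped over most of their range. The means were 12899 ± 2501 (SD, n = 4) with P4 alone, against 12211 ± 2170 (SD, n = 4) with P4+RU486. The log2 difference, P4+RU486 minus P4, was -0.077 (SE 0.22, limma adjusted p = 0.913). Its 95% interval, -0.56 to 0.41, spans levels from 0.678 to 1.33 times those in P4. The sign turned when P03 or R03 was left out (0.043 and 0.029).

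A single miRNA, miR-143, took 1.33% ± 0.291 (SD, n = 4) of all vesicle reads with P4 alone, against 1.18% ± 0.197 (SD, n = 4) with P4+RU486. Between 1131 and 14878 reads stood behind each value, and the 95% exact binomial interval of the share in P04, which had the fewest, was 1.09% to 1.23%. Its rank among the 495 rows lay between 13 and 20 in each library, and its mean level was the 14th. Among rows tested, miR-143 was among the steadier: its SD within treatments was 0.26 on the log2 scale, the 18th lowest of 229, where the median row had 0.66. Nearly all of these rows had lower levels, and fewer reads bring more counting error. At like levels, the SE of the log2 difference between treatments was 0.19 for miR-25 and 0.29 for miR-21, beside 0.22 for miR-143.

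**Figure D1:**
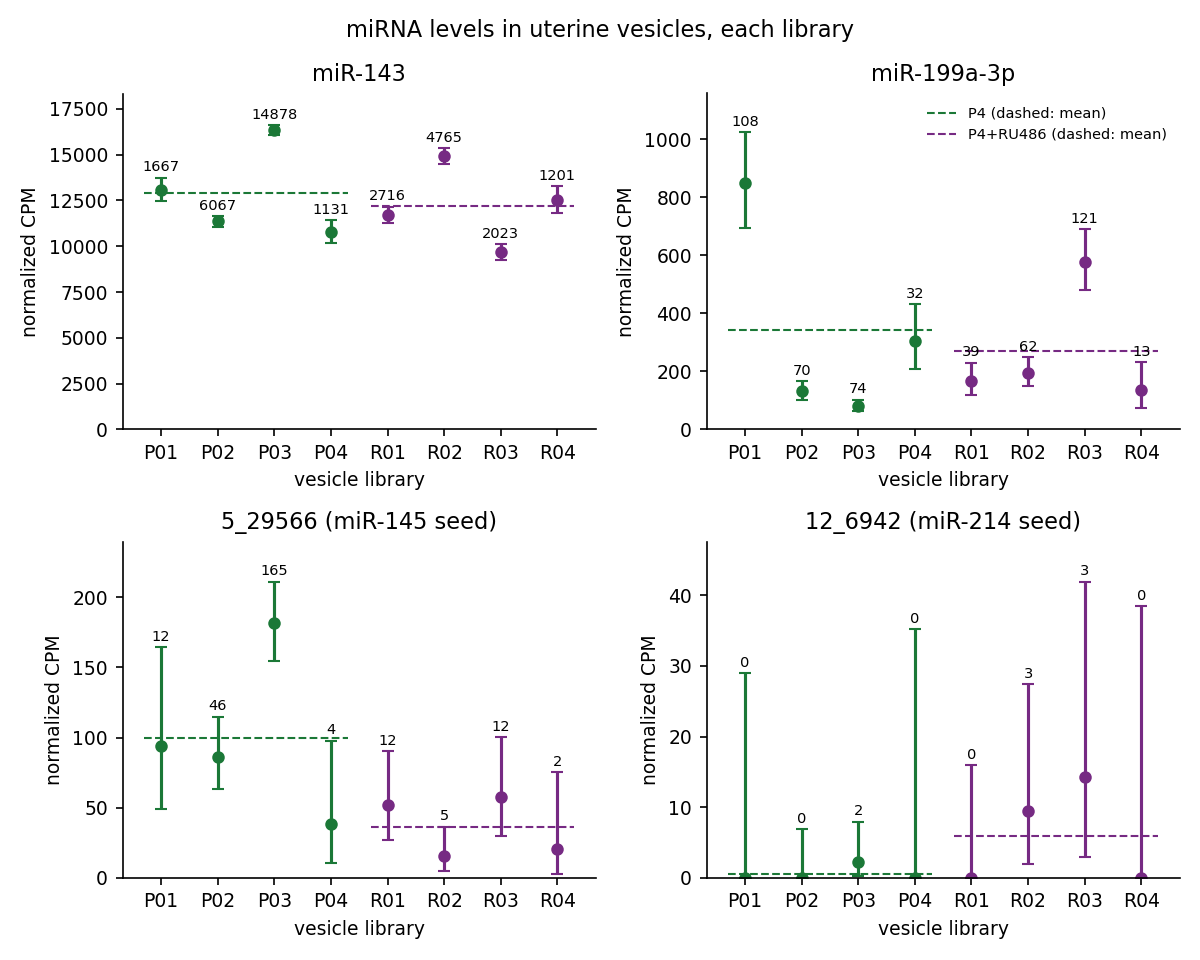
Normalized CPM (y axis, linear, from 0) of 4 rows in each of the 8 vesicle libraries (x axis), with P4 in green and P4+RU486 in purple. Points are single libraries, bars are 95% exact Poisson intervals of the reads, the number above each bar is the number of reads, and dashed lines are means over 4 libraries. miR-143 lies between 9673 and 16350 in all 8 libraries, miR-199a-3p is high in P01 and R03, 5_29566 is highest in P03, and 12_6942 has 0 reads in 5 libraries.

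The row with the miR-145 seed, 5_29566, had the largest estimated difference of the 3 rows tested, with a lower mean in P4+RU486, but it did not pass the test across all rows. P01 to P04 held 94.3, 86.1, 181 and 38.2 normalized CPM. R01 to R04 held 51.8, 15.7, 57.4 and 20.9 normalized CPM. Of the P4 libraries, 3 lay above all 4 P4+RU486 libraries, and P04 lay among them, so the treatments overlapped. The means were 99.97 ± 59.6 (SD, n = 4) with P4 alone, against 36.4 ± 21.2 (SD, n = 4) with P4+RU486, a ratio of means of 2.75 in favour of P4.

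For 5_29566 the log2 difference was -1.43 (SE 0.59, 95% interval -2.73 to -0.14). The unadjusted limma p was 0.0331 and the limma adjusted p was 0.317. None of the 3 rows tested here was called at an adjusted p under 0.05, where 1 of all 229 rows (0.437%) was, and edgeR and DESeq2 called 0 of the 3 as well. At an unadjusted p under 0.05 stood 1 of the 3, against 33 of all 229 rows (14.4%). In none of the 3 were the libraries of both treatments separate, which was the case in 23 of the 229 rows (10.0%). The authors' deposited table puts 5_29566 2.79-fold higher in P4 (adjusted p = 0.18), the 13th smallest of its 495 rows.

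Few reads stood behind 5_29566. The P4 libraries had 12, 46, 165 and 4 reads of it, and the P4+RU486 libraries 12, 5, 12 and 2. Thus 165 of all 258 reads came from P03, the deepest library. In R04, 2 reads give a 95% exact Poisson interval of 2.53 to 75.4 normalized CPM, which reaches above the value of P04 and not up to that of P01. The direction was the same in all 18 alternatives run, between -1.82 (without P04) and -1.08 (without P03), with adjusted p-values from 0.246 to 0.543. With 1 library left out, the unadjusted limma p ran from 0.0113 (without P04) to 0.112 (without P03). It was over 0.05 without P01, P02, P03, R02 or R04.

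miR-199a-3p varied widely between libraries of the same treatment and did not differ between treatments beyond that spread. P01 to P04 held 849, 131, 81.3 and 305 normalized CPM. R01 to R04 held 168, 194.1, 579 and 136 normalized CPM. P01 and R03 were high, 1 library of each treatment, and the remaining 6 lay between 81.3 and 305. The means were 341.5 ± 351 (SD, n = 4) with P4 alone, against 269 ± 207.7 (SD, n = 4) with P4+RU486. The log2 difference was -0.028 (SE 0.68, limma adjusted p = 0.990), with a 95% interval of -1.50 to 1.45, so that the data allow from 0.353 to 2.73 times the level in P4.

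Each value of miR-199a-3p rested on 13 to 121 reads. Its SD within treatments, 1.24 on the log2 scale, lay above the 0.66 of the median row. The sign of its difference turned in 6 of 18 alternatives. Without P01 the log2 difference was 0.60, and without P03 it was -0.52. Without the 3 libraries under 150000 reads, which include P01, it was 1.36 (limma adjusted p = 0.300). Of the P4 libraries this setting kept only P02 and P03, which had the lowest values of miR-199a-3p.

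The row with the miR-214 seed, 12_6942, was barely detected in vesicles. It had 2 reads in P03, 3 in R02 and 3 in R03, and 0 in each of the other 5 libraries. In normalized CPM these were 2.20, 9.39 and 14.3. A count of 0 allows up to 23.6 normalized CPM in P01, 5.62 in P02, 28.6 in P04, 12.9 in R01 and 31.3 in R04. In 4 of these 5 libraries it therefore does not exclude a level like that in R02. The reads of all libraries gave 6 in 879528 for P4+RU486 and 2 in 1829232 for P4, a ratio of 6.24 with a 95% counting interval of 1.12 to 63.2. This interval takes no account of differences between libraries. The row was under the mean of 10 required for the test. In a fit with no such filter its log2 difference was 1.41 (SE 1.05, limma adjusted p = 0.789). The authors' deposited table lists it at -4.92, higher in P4+RU486 (adjusted p = 0.65).

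**Figure D2:**
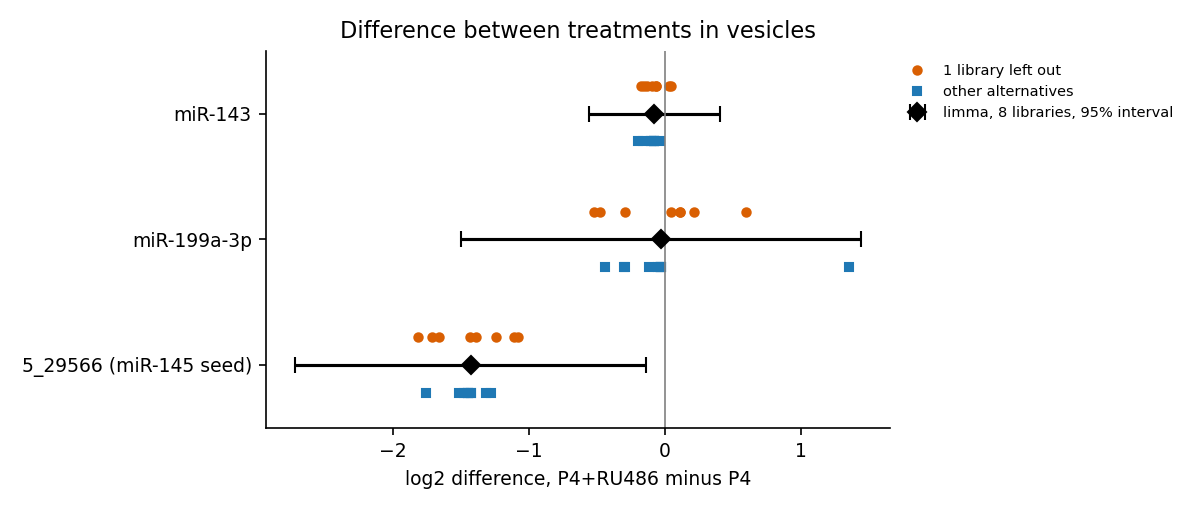
Log2 difference in vesicles, P4+RU486 minus P4 (x axis), of the 3 rows that entered the test. Black diamonds with bars are the limma estimates over 8 libraries with 95% intervals, orange points leave out 1 library each, and blue squares are the other alternatives. All points of 5_29566 lie below 0, while those of miR-143 lie close to 0 and those of miR-199a-3p lie on both sides of it, from -0.52 to 1.36.

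Although miR-143 and miR-145 are known to come from a shared transcript, reads of the 2 rows were far apart in vesicles. For each read of 5_29566 there were 139, 132, 90.2 and 283 reads of miR-143 in P01 to P04. In R01 to R04 there were 226, 953, 169 and 601. R02 and R04 lay above every P4 library, while R01 and R03 lay between P01 and P04. The mean of the log2 ratio of 5_29566 to miR-143 was -7.20 ± 0.69 (SD, n = 4) with P4 alone, against -8.59 ± 1.17 (SD, n = 4) with P4+RU486. The efficiency with which each of these molecules enters a library was not measured, so the ratio is one of reads and not of molecules.

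The ratio of miR-143 to miR-199a-3p followed neither treatment. It was 15.4, 86.7, 201 and 35.3 reads of miR-143 per read of miR-199a-3p in P01 to P04, and 69.6, 76.9, 16.7 and 92.4 in R01 to R04. P01 and R03 had the lowest ratios and P03 the highest. The rows of all 4 miRNAs together held 1.38% ± 0.334 (SD, n = 4) of all reads with P4 alone, against 1.21% ± 0.183 (SD, n = 4) with P4+RU486. Of these reads 93.3% to 98.8% were miR-143 in every library, so the sum describes little else.

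**Figure D3:**
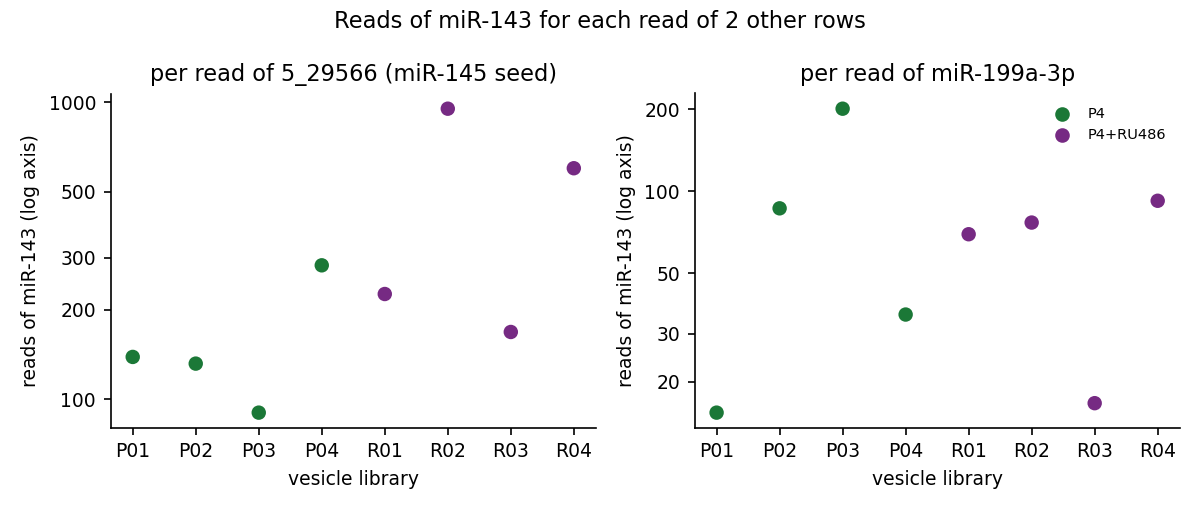
Reads of miR-143 for each read of 5_29566 (left) and for each read of miR-199a-3p (right), on log axes, in each of the 8 vesicle libraries, with P4 in green and P4+RU486 in purple. On the left the ratio runs from 90.2 in P03 to 953 in R02. On the right it is lowest in P01 and R03, at 15.4 and 16.7.

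The 3 rows did not share a pattern over the vesicle libraries. Pearson's r of log2(normalized CPM + 1) over the 8 libraries was 0.13 between miR-143 and 5_29566, -0.48 between miR-143 and miR-199a-3p, and -0.03 between 5_29566 and miR-199a-3p. These coefficients are descriptions over libraries that share their normalization and depth.

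For each of the 3 rows, the likest rows were picked as the highest correlations among the 229 rows tested, over only 8 libraries. High coefficients and a shared order of libraries follow in part from that choice and were not tested. The row most like miR-199a-3p was miR-10b, a miRNA encoded in a HOX gene cluster, with r = 0.88 over 8 libraries. miR-10b was at 16271, 2145.5, 1936 and 9636 normalized CPM in P01 to P04, and at 4546, 3300, 10625 and 6985 in R01 to R04. P01, R03 and P04 were the highest libraries for both, and P02 and P03 the lowest. Next came 24_21767, a row with no listed seed (r = 0.87), and 11_4449, with the seed of miR-423-3p (r = 0.83). miR-10b differed between treatments by 0.19 (SE 0.63, limma adjusted p = 0.913).

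Levels of rows of other cell types moved in part with miR-199a-3p and in part against it. The leukocyte list (4 rows, the most abundant of them miR-150) summed to 14818 normalized CPM in P01 and to between 2286 and 5323 in the other libraries, with 2333 in R03. miR-150 alone held 13655 in P01, so the sum describes mainly that row. The row with the miR-342 seed was also highest in P01 (935). Those with the miR-155 and miR-142b seeds were highest in P02 (266) and R01 (86.3), against 181 and 47.1 in P01. Of the erythroid list, the single row 26_23579 (miR-486 seed) held 3441 in P01, 7365 in P04 and 5427 in R03, and 281 and 363 in P02 and P03. The epithelial list summed to 8965 in P01, its lowest value, and to 35369 in P03, its highest, the library where miR-199a-3p was lowest. The list of other miRNAs high in fibroblasts and connective tissue was lowest in P01 (20891), next lowest in R03 (23573) and highest in P03 (33360). Most of that sum was miR-21 and miR-22-3p, at 6851 and 5201 in P01, and its rows did not move as a group. On the same list, miR-125b (5979) and miR-29a (1234) were highest in P01. The part of these cells in the level of miR-199a-3p was not tested. In the comparison of treatments limma called 0 of 4 leukocyte rows, 0 of 1 erythroid row, 0 of 6 epithelial rows, 0 of 3 rows of ciliated epithelium and 0 of 2 rows of liver or plasma. At an unadjusted limma p under 0.05 stood 1 leukocyte row and 1 liver or plasma row, beside 33 of all 229 rows (14.4%). edgeR called 0 rows of these lists and DESeq2 called 1, of liver or plasma (19_14926, with the miR-885 seed). limma also called 19_14926 with depth as a covariate and without P02. Over all 229 rows limma called 1 (0.437%), edgeR 1 and DESeq2 4. Without the 3 libraries under 150000 reads, the setting that moved miR-199a-3p to 1.36, limma called the erythroid row 26_23579, at a log2 difference of 3.38 (limma adjusted p = 0.042) in place of 1.18 (0.623). That setting left R01 to R03 for P4+RU486 and only P02 and P03 for P4, where 26_23579 was lowest. A link between the shifts of these rows was not tested.

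For 5_29566, the row most like it was X_36640, with the seed of miR-652 (r = 0.89). It held 55.0, 54.3, 96.7 and 47.7 normalized CPM in P01 to P04 and 51.8, 28.2, 71.7 and 41.8 in R01 to R04, highest in P03 and lowest in R02 as was 5_29566. miR-25 (r = 0.82) and 4_28011, with the seed of miR-574-3p (r = 0.82), followed. For 4_28011 the log2 difference was -0.72 (SE 0.31, limma adjusted p = 0.317), and for miR-25 it was -0.31 (SE 0.19, limma adjusted p = 0.494).

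For miR-143 the likeness was looser. The closest rows were 2_15485 and 1_2168, both with the seed of miR-101b-3p and with identical values, which may therefore hold 1 signal (r = 0.78). The third was miR-26b (r = 0.75), at 6591 ± 1868 (SD, n = 4) with P4 alone, against 5796 ± 1483 (SD, n = 4) with P4+RU486. Both miR-143 and miR-26b were highest in P03, next highest in R02 and lowest in R03.

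**Figure D4:**
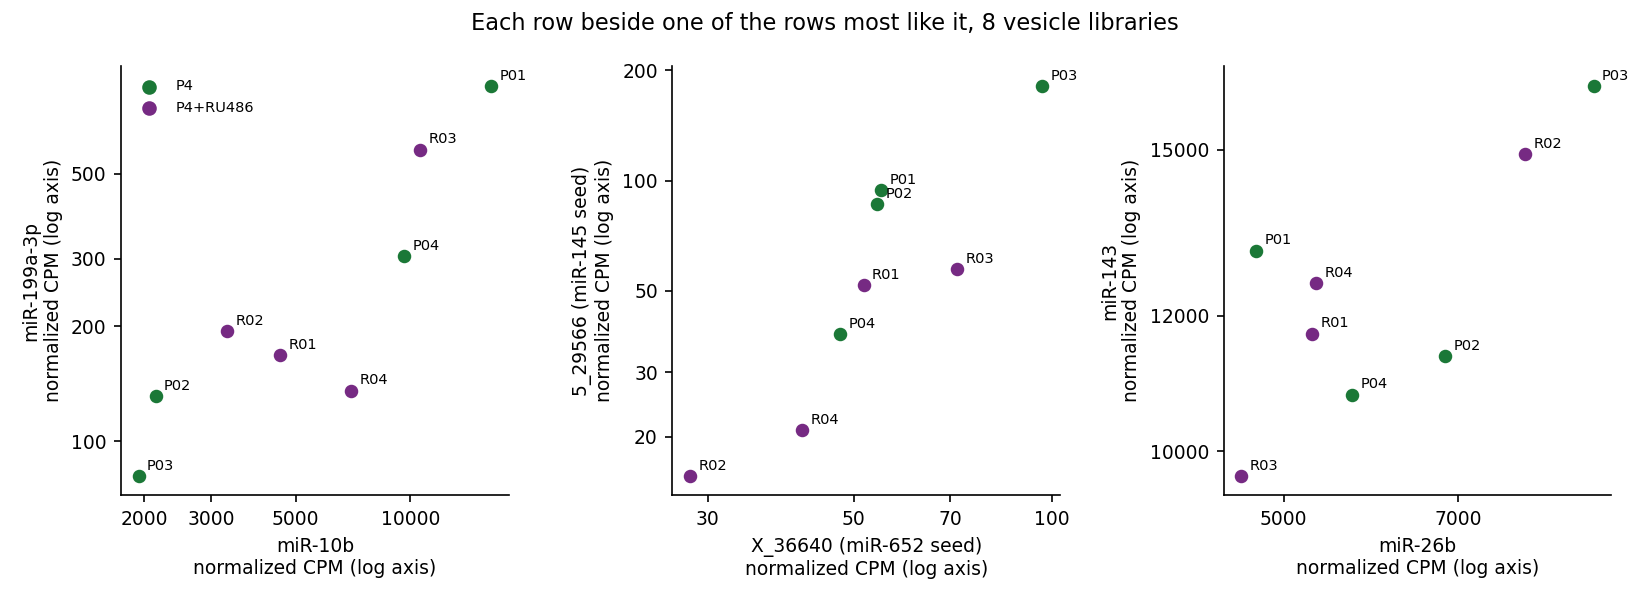
Each panel sets the normalized CPM of 1 row (y axis, log) against that of a row picked for its high correlation with it (x axis, log). Points are the 8 vesicle libraries, with P4 in green and P4+RU486 in purple. miR-199a-3p and miR-10b are both highest in P01, 5_29566 and X_36640 are both highest in P03 and lowest in R02, and miR-143 and miR-26b scatter more widely.

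Among other miRNAs known to be high in fibroblasts and connective tissue, none passed the limma test in vesicles, nor edgeR or DESeq2. An unadjusted limma p under 0.05 was reached by 3 rows, not all in the same direction, beside 33 of all 229 rows (14.4%). Of 18 rows on that list 14 could be tested, 4 were higher and 10 lower in P4+RU486, and the median log2 difference was -0.20, beside 0.04 over all 229 rows, of which 118 were higher and 111 lower. Rows with identical values, a pair with the miR-29b seed and a pair with the miR-24-3p seed, each count double in that list. The most abundant was miR-21, a miRNA linked to fibrosis, at 13376 ± 4652 (SD, n = 4) with P4 alone, against 13624 ± 2033 (SD, n = 4) with P4+RU486. Its log2 difference was 0.10 (SE 0.29, limma adjusted p = 0.913). The list summed to between 20891 and 33360 normalized CPM in P4 and between 23573 and 29021 in P4+RU486.

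Striated muscle miRNAs were low in vesicles and none passed the test. The list of miR-1, miR-133, miR-206, miR-208 and miR-499 matched 2 rows, miR-133 and 13_7732, which has the miR-499 seed. miR-133, known for its role in heart and skeletal muscle, was at 39.3, 18.7, 20.9 and 38.2 normalized CPM in P01 to P04, and at 17.3, 6.26, 9.56 and 10.4 in R01 to R04. All 4 P4 libraries lay above all 4 P4+RU486 libraries, on 4 to 19 reads per library with P4 and 1 to 4 reads with P4+RU486. Libraries of both treatments were separate in this way, in either direction, in 23 of all 229 rows (10.0%). miR-133 matched its list by a rule set after its values were seen. Its log2 difference was -1.35 (SE 0.64, limma adjusted p = 0.334), and neither edgeR nor DESeq2 called it. The row 13_7732 held 0 in P01, R03 and R04 and at most 47.7 normalized CPM, in P04. Its log2 difference was -0.91 (SE 1.59, limma adjusted p = 0.869). No row matched miR-126, a miRNA of endothelium.

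In the endometrium only the authors' fold and adjusted p could be used, because the library columns of that table have names that match no label. Which treatment is the numerator is not stated there, so a sign is printed as coded and says nothing of which treatment was higher. None of the 6 rows passed an adjusted p of 0.05 in the authors' deposited table, where 9 of 761 rows (1.18%) did. In the authors' deposited table for vesicles none of the 4 rows passed either, where 9 of 495 (1.82%) did.

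miR-143 had the smallest adjusted p of the 6 in the authors' deposited table for endometrium, 0.449 at a fold of -1.09, and stood 68th of 761. In the same authors' deposited table miR-199a-3p stood at -1.17 (adjusted p = 0.725) and 12_6942, with the miR-214 seed, at -1.10 (adjusted p = 0.976). For 5_29566 the fold in the authors' deposited table was -1.01 (adjusted p = 0.992), so the row with the largest estimate among those tested in vesicles had the smallest fold in the tissue. That contrast between vesicles and tissue was not tested. The further rows with miR-145 seeds, 10_3637 and 21_19737, stood at -1.04 and -3.09 in the authors' deposited table (adjusted p = 0.989 and 0.694).

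All 6 signed folds were negative, as were 397 of the 761 endometrium rows (52.2%). In size the median fold of the 6 was 1.10, smaller than the 1.25 of all rows of the authors' deposited table. For the 4 rows in the authors' deposited table for vesicles it was 1.925, larger than the 1.63 of all rows there. In vesicles 1 of the 4 rows was negative, 12_6942, against 48.3% of all rows, and the fold of miR-143 was 1.06 and that of miR-199a-3p 1.01 in the authors' deposited table, each with an adjusted p of 1. The numbers in the titles of the vesicle samples recur among those of the endometrium samples, so the tables may share ewes. For related tissue lists, 0 of 19 connective tissue rows and 0 of 5 striated muscle rows passed in the authors' deposited table for endometrium. Over all its rows 9 of 761 (1.18%) did. Of the other lists, 1 of 4 rows of ciliated epithelium and 1 of 2 of liver or plasma passed there. None of 6 epithelial, 5 leukocyte and 1 erythroid rows did.

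**Figure D5:**
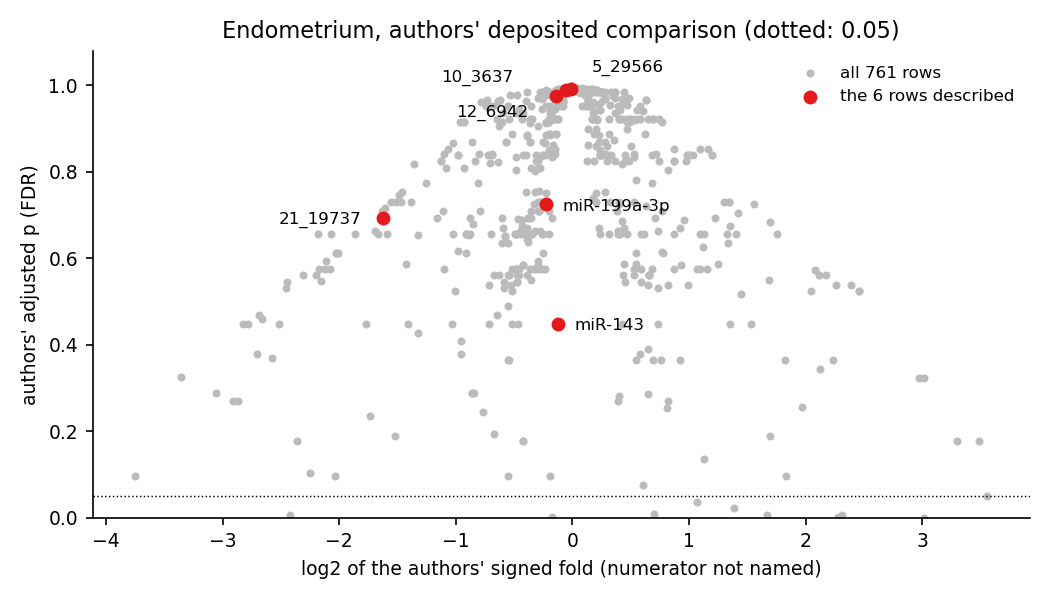
Signed log2 of the authors' fold (x axis, numerator not named) against the authors' adjusted p (y axis, linear) for all 761 endometrium rows in grey and the 6 rows described in red. The dotted line is 0.05. The red points all lie left of 0 and well above the line, with miR-143 lowest at 0.449 and 21_19737 farthest left at a fold of -3.09.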

How the data were processed

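Small RNA libraries were trimmed with cutadapt 1.11 and the build Oar_v3.1 and edgeR were used, per the submitters' processing notes. For aligner and miRNA caller, nothing is given in the sources used here. Vesicle values were deposited as a normalized signal: 100% were whole multiples of 1 read (tolerance 0.1), and TMM factors from these reads matched those behind the deposited values. Folds in the authors' deposited tables are a signed score, minus the inverse when under 1, and their adjusted p-value is an FDR. In vesicles, of 387 rows with a fold over 1.2, 361 had the sign of P4 minus P4+RU486. The 10 endometrium library columns, whose names match no label, were left out.

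Vesicles were tested with limma 3.58.1 (trend, R 4.3.3) on log2(value + 1), over all rows with a mean of at least 10, with Benjamini-Hochberg adjustment. This scale can understate changes of low rows. edgeR 4.0.16 and DESeq2 1.42.0 on recovered reads, other pseudocounts, filters and scalings, depth as a covariate and omitted libraries were alternatives. Named rows are all rows carrying the numbers, the 3 rows most correlated with each, and the most abundant row of each list of cell type miRNAs. Rows 13_7732 and 19_14926 were added after their values were seen, as was the match of list entries with a letter (miR-133a) to rows without one (miR-133). These rows and lists were chosen with earlier results of these data known.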

Additional observations from a re-analysis of the deposited data

Results flagged for a closer look

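In 30 groups of 4 vesicle libraries (levels of the rows, their ratios and the list sums), 4 had a library far from the others, where about 1 in 20 is flagged by chance. That rate does not hold for every group. The endothelium list, at 0 in all libraries, could not be flagged. A group with reads in only 1 library, as 12_6942 in P4, is always flagged. For miR-199a-3p in P4+RU486 this was R03, at 579 normalized CPM. For 12_6942, with the miR-214 seed, in P4 it was P03, at 2.20 normalized CPM, which is 2 reads where the other 3 libraries had 0. The ciliated epithelium list summed to 10637 normalized CPM in P04, the lowest in P4. The leukocyte list summed to 5094 in R02, the highest in P4+RU486, and miR-150 held 4318 of it.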

How the results depend on the processing

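The log2 difference of 5_29566 kept its sign and stayed short of the threshold in all 18 alternatives, with -1.82 to -1.08 when 1 library was left out and -1.76 to -1.28 in the others. For miR-143 it was -0.18 to 0.043 when 1 library was left out, above 0 without P03 (0.043) or R03 (0.029), and -0.19 to -0.04 in the others. For miR-199a-3p it was -0.52 to 0.60 when 1 library was left out, above 0 without P01 (0.60), P04 (0.11), R01 (0.11), R02 (0.043) or R04 (0.21), and 1.36 without libraries under 150000 reads. The cause was not tested. None of these rows was called in any of the alternatives. Over all rows, limma called 1, edgeR 1, DESeq2 4 and limma with depth as a covariate 6. Leaving out 1 library gave 0 to 2 calls, 2 without P02 and 0 without P04, R01, R03 or R04, where 20 to 30 rows had an unadjusted limma p under 0.05. The share of reads held by the 4 rows was 1.23% to 1.49% in P4 and 1.13% to 1.27% in P4+RU486 with 1 library left out. No paired analysis was possible because vesicle columns name no ewe. The endometrium alternatives were not run, since its library columns match no label.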
